A study of Mus musculus with 2 samples.

Results

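Glp1r, Pcp4, Spon1 and Grm8 are 4 genes best known from brain or pancreas that differed between plasmacytoid dendritic cells (pDCs) with and without the transcription factor Runx2. They were picked from the same 2 arrays for the size of that difference, so their levels are a description and no test is given. All 4 were found, each with 1 probe set that names no other gene, among 19938 named genes on the array. The samples were bone marrow pDCs, dendritic cells that make large amounts of type I interferon, from mice whose blood system had been rebuilt with fetal liver cells. One group had Runx2-/- donor cells and the other wild-type donor cells, both analysed 2 months after reconstitution. Runx2 is missing from the donor-derived blood cells, while the rest of each chimeric animal is the host's. Cells of both groups were sorted as CD11b-negative and positive for B220 and BST2, and total RNA (250 ng per sample) went onto an Affymetrix Mouse Gene 1.0 ST array, whose probes are spread over the whole transcript. Each genotype had 1 array, and therefore there is no replicate error, no standard error and no p-value for any value here. The number of mice behind each sample is not given in the sources used here.

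Glp1r encodes the receptor for GLP-1, a gut hormone that strengthens insulin secretion from pancreatic beta cells, and it signals through the Gs protein and cyclic AMP. Pcp4 encodes PEP-19, a small protein of Purkinje and other neurons that binds calmodulin through an IQ motif and changes how calmodulin handles calcium. Spon1 encodes F-spondin, a secreted matrix protein of the floor plate of the spinal cord that guides axons and binds the amyloid precursor protein and reelin receptors. Grm8 encodes a metabotropic glutamate receptor that signals through Gi/o proteins and lowers transmitter release at nerve endings. Runx2 itself is best known as the master regulator of bone-forming cells, and it is also a factor that pDCs express. Runx proteins bind DNA at a short core sequence together with their partner CBFb.

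The sequences just upstream of the genes are shown because Runx proteins bind DNA and because the genes differ in direction. RefSeq promoter windows (GRCm38.p6) were given for 3 of the 4 genes, Glp1r, Pcp4 and Grm8, the last with 3 start sites. Below are the 250 bases before the start, in the direction of transcription, for the outermost start of Grm8 and the single start of the other genes. Capitals mark the letters TGNGGT, a loose form of the Runx core, on either strand.
Glp1r, chr17:30901617-30901866, plus strand: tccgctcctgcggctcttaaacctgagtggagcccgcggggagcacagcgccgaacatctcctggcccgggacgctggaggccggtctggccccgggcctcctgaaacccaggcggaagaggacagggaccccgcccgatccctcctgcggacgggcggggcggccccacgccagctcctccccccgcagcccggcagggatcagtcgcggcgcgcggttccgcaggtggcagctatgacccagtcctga
Pcp4, chr16:96467356-96467605, plus strand: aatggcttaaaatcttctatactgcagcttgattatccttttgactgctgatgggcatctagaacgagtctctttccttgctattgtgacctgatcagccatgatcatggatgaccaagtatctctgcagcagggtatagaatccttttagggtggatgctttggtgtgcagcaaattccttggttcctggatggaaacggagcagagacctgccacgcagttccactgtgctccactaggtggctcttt
Grm8, chr6:28135147-28135396, minus strand: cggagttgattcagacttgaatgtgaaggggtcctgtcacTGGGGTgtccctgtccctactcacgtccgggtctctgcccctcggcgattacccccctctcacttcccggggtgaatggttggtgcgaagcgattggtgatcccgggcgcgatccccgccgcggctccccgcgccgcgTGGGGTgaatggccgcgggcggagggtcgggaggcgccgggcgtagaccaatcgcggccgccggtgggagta
The core TGTGGT, searched on both strands over the whole window of 300 bases (250 before and 50 after the start), was in 0 of the 5 windows of the 3 genes and in 16.8% of all 32851 windows. The looser TGNGGT, which includes every TGTGGT, was in 3 of the 5 and in 45.8% of all windows. In Grm8 it began 210 and 72 bases before the outermost start, and in Glp1r 20 bases after the start, outside the printed stretch. The third Grm8 window held it 45 bases after that start. The letters TATAAA were in 0 of the 5 windows and in 13.6% of all. The Glp1r stretch was 73.2% G or C with 26 CpG pairs and the outermost Grm8 stretch 68.4% with 29, whereas the Pcp4 stretch was 46.8% with 3, against a median of 52.4% over all windows. The 250 bases before the other Grm8 starts were 54.4% G or C with 8 CpG pairs and 43.6% with 2, so the value for Grm8 depends on the start chosen. These matches describe letters in a short window and say nothing of binding.

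On the array of wild-type pDCs the intensities were 118.6 for Glp1r, 166.8 for Pcp4, 140.3 for Spon1 and 1059.8 for Grm8. On the Runx2-deficient array they were 724.1, 789.1, 495.3 and 181.9, in the same order. Glp1r, Pcp4 and Spon1 were thus low in the wild-type sample and high in the Runx2-deficient one, and Grm8 the other way round. An intensity depends on how well a probe set's own probes bind, so these values compare the arrays within a gene and not the amounts of RNA of different genes. In bulk RNA, more cells that express a gene and more RNA per cell cannot be told apart.

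**Figure D1:**
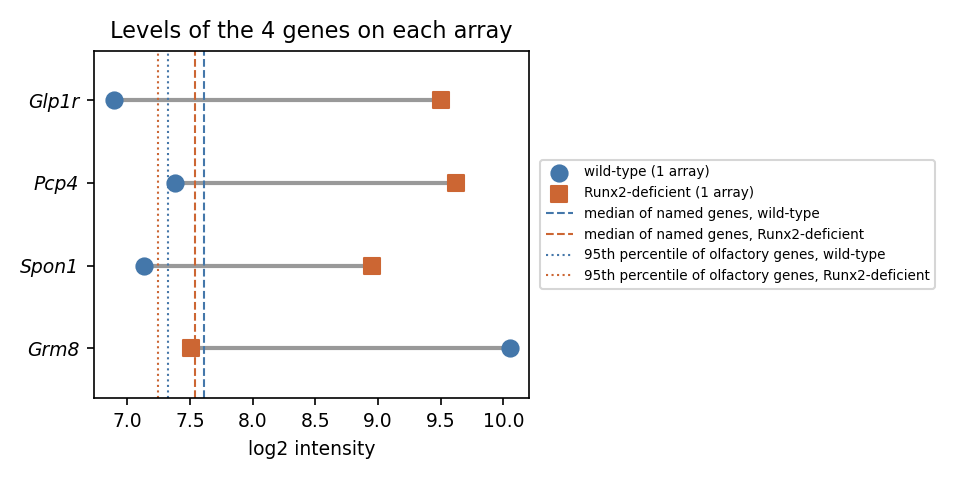
Log2 intensity of each gene on the wild-type array (circles) and the Runx2-deficient array (squares), 1 array per genotype, so no error bars. Dashed lines are the median of all named genes on each array and dotted lines the 95th percentile of olfactory receptor genes; 3 genes lie left of both blue lines or between them in the wild-type sample, and Grm8 lies just left of the dashed line in the Runx2-deficient sample.

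Glp1r was at 6.89 on the log2 scale in wild-type cells and at 9.50 without Runx2, a difference of 2.61, or 6.11-fold higher without Runx2. This was rank 3 among all 19938 named genes in that direction. In the same terms, here and in every pair of levels with wild-type first, Pcp4 was at 7.38 and 9.62, a difference of 2.24 (4.73-fold higher, rank 8). Spon1 was at 7.13 and 8.95, a difference of 1.82 (3.53-fold higher, rank 13). Grm8 was at 10.05 and 7.51, a difference of -2.54, or 5.83-fold lower without Runx2, and it ranked 13 in its own direction. Over all named genes the share past 2-fold was 0.436% on the higher and 0.647% on the lower side, and the median difference was -0.033. Over genes at or above the median intensity of named genes on at least 1 array, the shares were 0.793% and 1.17%. The 4 genes were chosen for being past that size, so their count is not read against these shares.

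**Figure D2:**
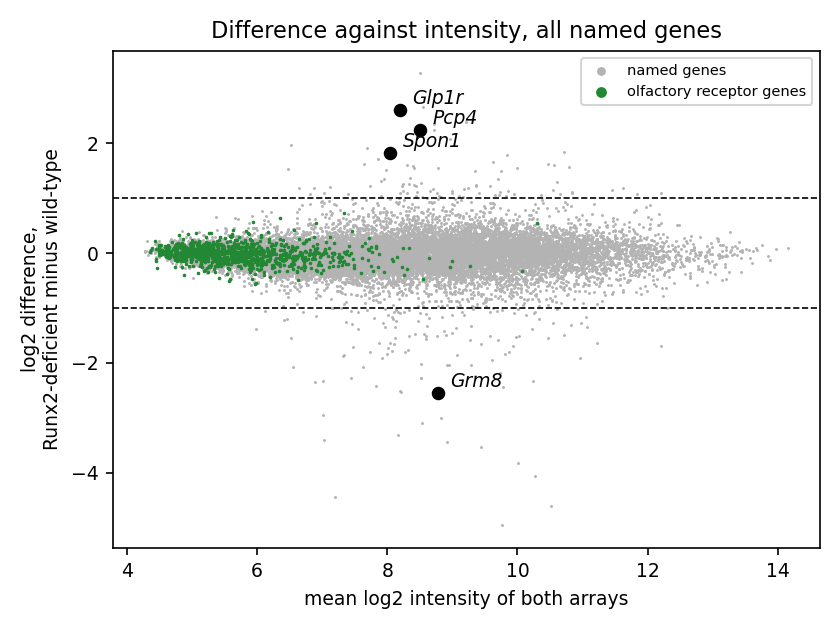
Log2 difference (Runx2-deficient minus wild-type) against mean log2 intensity for all named genes (grey), with olfactory receptor genes in green and the 4 genes in black; dashed lines mark 2-fold. The 4 genes lie in the middle of the intensity range and, being chosen for the size of this difference, outside the band of most genes. Of 1027 olfactory receptor genes 0 are past 2-fold, but most of them are dimmer than the 4 genes, with a median log2 intensity of 5.59 on each array.

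Each of the 4 genes was dim on 1 of the arrays. The median of the named genes served as the brightness level, 7.61 for wild-type and 7.54 for Runx2-deficient cells in log2 units. In the wild-type sample Glp1r lay 0.73 below it, Spon1 0.48 and Pcp4 0.23 below it, while in the Runx2-deficient sample these genes lay 1.96, 1.41 and 2.09 above it. Grm8 was 2.43 above the level in the wild-type sample and 0.032 below it in the Runx2-deficient sample. All 4 pass a filter that asks for this level on at least 1 array, which a gene that differs this much reaches through its bright array, and 0 of the 4 pass one that asks for it on both. Of 368 named genes below the level in the wild-type sample and at or above it in the Runx2-deficient sample, 22 were at least 2-fold higher, Glp1r, Pcp4 and Spon1 among them. Of 368 that crossed in the opposite direction, 49 were at least 2-fold lower, Grm8 among them.

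The 1027 olfactory receptor genes, a family with little expression outside the nose, gave a second scale of dimness. In the wild-type sample 98 of them (9.54%) were at or above the intensity of Glp1r, 68 (6.62%) at or above Spon1 and 42 (4.09%) at or above Pcp4. In the Runx2-deficient sample only 2, 3 and 2 of them reached Glp1r, Spon1 and Pcp4. For Grm8 the numbers were 1 in wild-type cells and 33 (3.21%) without Runx2. The dim readings of all 4 genes thus lay within the upper tail of the olfactory genes, and the table carries no detection call that would say whether any RNA was present. A dim value that is mostly background makes a fold too small, so the folds rest on a dim side that could not be resolved.

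No other measured gene of the GLP-1 pathway was 2-fold apart, and Ramp3, Crtc1 and Dpp4 lay furthest from 0. Of the 14 other class B receptors, the family of peptide hormone receptors to which Glp1r belongs, 0 were 2-fold apart in either direction, and their differences ran from -0.25 to 0.10 with a median of -0.040. Calcrl, which with RAMP proteins forms the receptors for CGRP and adrenomedullin, was at 9.78 in wild-type cells and 9.54 without Runx2. Vipr1, a receptor for the neuropeptide VIP, was at 7.70 and 7.75, and Gcgr, the glucagon receptor, at 7.21 and 7.22. Ramp3, whose protein escorts class B receptors to the cell surface, was at 7.35 and 8.06, a difference of 0.71, and Ramp1 was at 9.41 and 9.28. Gcg, which encodes the GLP-1 precursor, was dim on both arrays, at 6.01 and 5.92. Dpp4, the protease that inactivates GLP-1 and is also the lymphocyte antigen CD26, was bright, at 10.85 and 11.38, a difference of 0.53.

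Downstream of the receptor, 0 of 22 measured genes of Gs and cyclic AMP signalling were 2-fold apart, with a median of -0.10. Crtc1 and Crtc3, coactivators of the cyclic AMP responsive factor CREB, were furthest below 0, at -0.56 and -0.50. Adcy9, an adenylyl cyclase that makes cyclic AMP, and Creb1 were at 0.34 and 0.28. Prkacb, a catalytic subunit of protein kinase A, was at 11.30 and 11.15. Of 10 cyclic AMP phosphodiesterase genes, which break the messenger down, 0 were 2-fold apart and the median was 0.052, with Pde4a at 0.17 and Pde7a at 0.11.

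Among calmodulin genes and their small IQ partners, Pcp4 was the 1 of 6 measured at least 2-fold apart. The other 5 were below 0 as deposited, while 42.6% of all named genes were above 0. One of these signs depended on the probe set, since Calm2 was at -0.037 but at 0.13 with the mean of its probe sets. Pcp4l1, its closest relative, was dim at 7.02 and 6.75. Nrgn, which encodes the neuronal IQ protein neurogranin, was at 8.40 and 7.99. Calm2 and Calm3, both of which encode calmodulin itself, were bright, Calm2 at 10.60 and 10.57 and Calm3 at 10.39 and 9.87. Of 13 calmodulin-dependent kinase and calcineurin genes, 0 were 2-fold apart and the median was -0.0075. Camk2a, the kinase subunit most abundant in neurons, was at 7.62 and 8.04. Ppp3ca, a catalytic subunit of the phosphatase calcineurin, was at 10.47 and 10.76, and Ppp3cb, another, at 11.26 and 11.20.

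Spon1 was the 1 of 11 spondin, R-spondin and thrombospondin genes at least 2-fold apart. The 10 genes other than Spon1 had a median of -0.17, and 9 of them were below the brightness level on both arrays. All 10 were below 0 as deposited, while 42.6% of all named genes were above 0. After loess correction Spon2 (0.016) and Thbs3 (0.022) lay above 0. Spon2, its nearest family member and a pattern recognition protein of innate immunity, was at 7.46 and 7.40. Thbs1, a matrix protein stored in platelets, was at 8.13 and 7.32, a difference of -0.82, on arrays where platelet markers were lower too: 5 of 5 measured were below 0, and 2, Ppbp and Pf4, were at least 2-fold lower. The part of platelet RNA in the value of Thbs1 was not tested. Of 8 genes for F-spondin partners and the reelin pathway, 0 were 2-fold apart. Lrp8, a receptor for reelin that also binds F-spondin, was bright and came nearest, at 11.69 in wild-type cells and 10.76 without Runx2, a difference of -0.93 (1.91-fold lower). App was at 8.83 and 8.69, Aplp2 at 8.78 and 8.96, and Reln was dim at 6.80 and 6.46.

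Among metabotropic glutamate receptors Grm8 was the 1 of 7 measured that was 2-fold apart. The other 6 ran from -0.29 to 0.39 with a median of 0.00040. Grm2 was at 7.87 and 7.58 and reached the brightness level, while Grm3, Grm4, Grm5, Grm6 and Grm7 stayed below it on both arrays. With Runx2 missing, Grm8 too lay below it.

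The ionotropic glutamate receptors, which are ion channels, held the 1 other gene at least 2-fold apart. Gria2, the subunit that makes AMPA receptors impermeable to calcium, was at 5.54 in wild-type cells and 7.51 without Runx2, a difference of 1.97 (3.92-fold higher), with both values below the brightness level. In the wild-type sample 541 of the 1027 olfactory genes were at or above it and in the Runx2-deficient sample 33. Gria3, another AMPA receptor subunit, was bright on both arrays, at 12.43 and 12.70, and the other 14 measured channel genes were within 2-fold. Of 11 glutamate transporter genes 0 were 2-fold apart, and Slc1a5, the glutamine carrier of this family, was the 1 past the brightness level, at 10.60 and 10.41. Of 9 Gi/o and scaffold genes 0 were 2-fold apart, with Gnai2, the main Gi subunit of white blood cells, at 12.39 and 11.91.

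Over all of these families, 1 of 131 measured genes other than the 4 was at least 2-fold higher, Gria2, and 0 were at least 2-fold lower. The median was -0.063, near the -0.033 of all named genes, of which 1.08% were 2-fold apart in either direction.

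**Figure D3:**
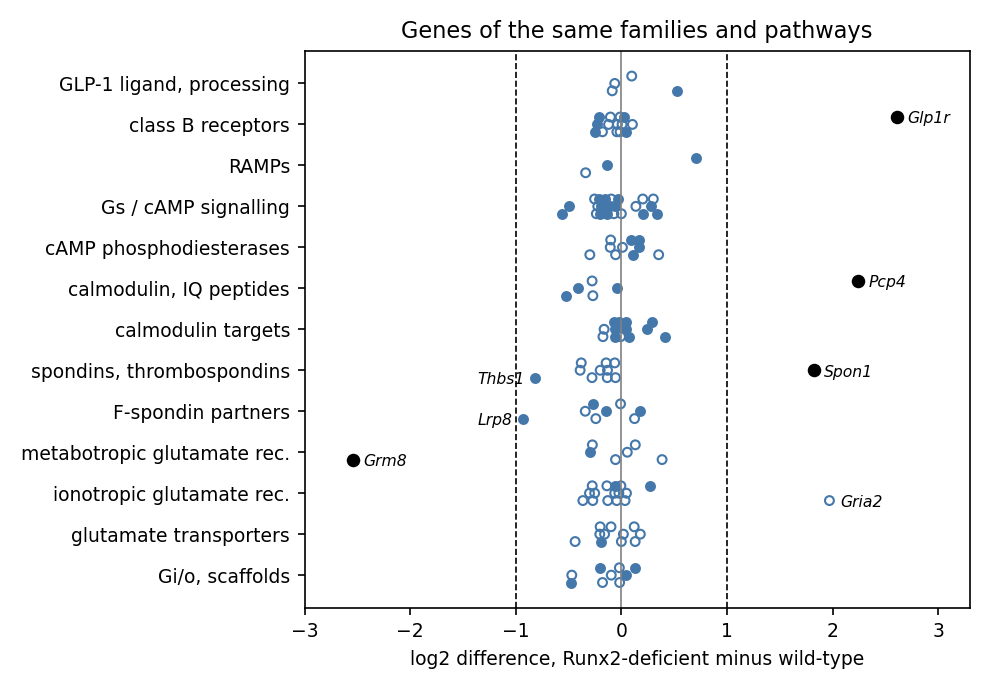
Log2 difference (Runx2-deficient minus wild-type) of every measured gene in 13 families and pathways, 1 point per gene, filled where it reached the brightness level on at least 1 array and open where it did not; black points are the 4 genes and dashed lines mark 2-fold. Apart from the 4 genes, Gria2 lies past 2-fold, and Lrp8 and Thbs1 lie nearest to it on the lower side.

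Of 41 measured genes in lists of neuroendocrine granule, neuron and glia, and islet genes, 0 were 2-fold apart in either direction. Over all named genes the share was 1.08%, so 0 in lists of this size is near that share. Gria2, the neuronal gene past 2-fold named above, is not in these lists. Of 15 measured genes of dense-core granules and neuroendocrine secretion, 0 reached the brightness level on either array, and their differences ran from -0.19 to 0.091. Of 13 neuron and glia markers 1 reached it, the myelin gene Mbp at 8.65 and 8.36, and the list ran from -0.32 to 0.061. Of 13 islet markers 3 reached it, Ppy at 8.80 and 8.75, Kcnj11 at 7.87 and 7.82 and Ins2 at 7.48 and 7.56, and the list ran from -0.25 to 0.10. The summed intensity was 1836 in wild-type cells and 1745 without Runx2 for the granule genes, 1468 and 1324 for the neuron and glia markers, and 2028 and 1915 for the islet markers. Only 4 of the 41 measured genes of these lists reached the brightness level on either array, so most of each sum comes from dim probe sets.

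**Figure D4:**
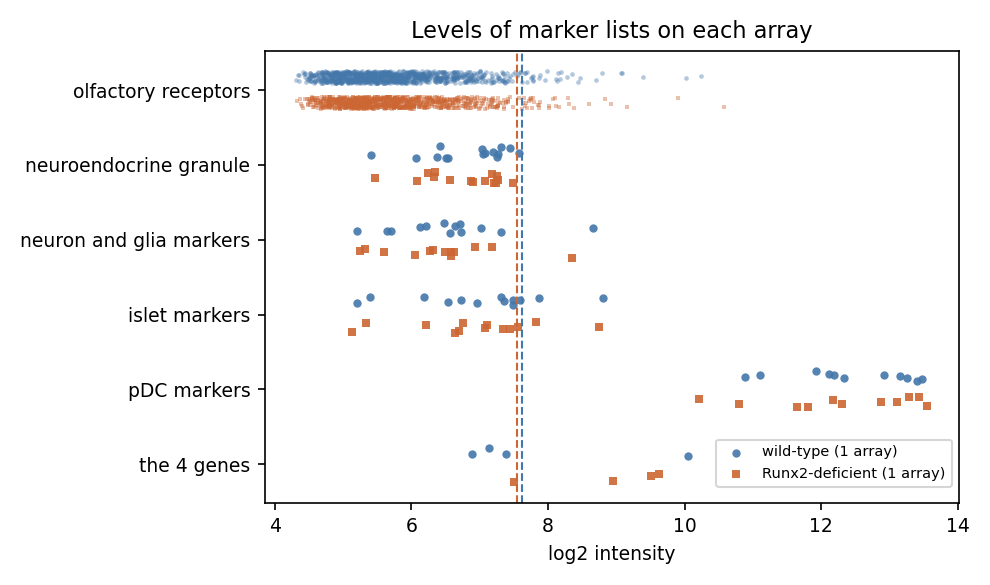
Log2 intensity on the wild-type (circles) and Runx2-deficient (squares) arrays for olfactory receptor genes, neuroendocrine, neural, islet and pDC lists and the 4 genes, 1 point per gene; dashed lines are the medians of named genes. The neuroendocrine granule genes lie left of the dashed lines on both arrays, and the pDC markers lie far to the right, between 10.21 and 13.55.

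The markers of the labelled cell type were bright on both arrays, and some markers of other cells were bright too. All 11 measured pDC markers were bright, from 10.89 to 13.48 in the wild-type and from 10.21 to 13.55 in the Runx2-deficient sample, with 0 of them 2-fold apart. The genotype could not be checked on Runx2, which was not analysed here for want of a probe set named for it alone. Granulocyte, erythroid and platelet markers were lower in the Runx2-deficient sample, in the same direction as Grm8. Of 10 granulocyte markers 9 were at least 2-fold lower, with a summed intensity of 17386 in wild-type cells and 2087 without Runx2. Of 7 erythroid markers 5 were at least 2-fold lower (3791 and 1123), and the platelet sums were 6221 and 992. The pDC markers summed to 71149 and 68781. In the wild-type sample the brightest granulocyte and platelet markers, Ngp at 12.82 and Ppbp at 12.24, lay within the range of the pDC markers. The dimmest, Prtn3 at 8.25 and Vwf at 7.92, lay below that range. Neither these levels nor the sums compare the amounts of RNA of different genes. Without Runx2 Ngp and Ppbp were at 8.21 and 7.29. B cell (3057 and 3212), T cell (1742 and 1979), NK cell (436 and 487), monocyte (2268 and 1624) and conventional dendritic cell (20065 and 19222) markers had no member 2-fold higher. Lyz2 of the monocyte list (-1.59) and Itgax of the dendritic cell list (-2.43) were at least 2-fold lower. The rest of these lists did not follow them. Of 7 monocyte markers 5 were above 0, C1qb (0.89) and Csf1r (0.64) among them, and the list median was 0.028. Of 8 dendritic cell markers 4 were above 0 and 4 below, with a median of -0.016. The part of these cells in the value of Grm8 was not tested. The Y-linked Eif2s3y, Uty and Kdm5d differed by -4.44, -2.94 and -2.27, and donor sex and genotype cannot be told apart.

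The genes that flank the 4 in RefSeq order were taken as 2 named ones in each direction, 16 in all, with 1 of them inside Grm8. Of these, 14 were within 2-fold, 0 lay past 2-fold on the higher side and 2 on the lower. Over all named genes 1.08% were 2-fold apart in either direction, so a gene within 2-fold is the common case. Around Glp1r, Dnah8, a dynein heavy chain gene, was at 0.60 and Glo1, Umodl1 and Abcg1 lay between -0.17 and 0.21. Around Pcp4, the cell adhesion gene Dscam was dim and at -0.51, and Igsf5, Itgb2l and Bace2 lay between -0.30 and -0.047. Next to Spon1, the Ras-related GTPase gene Rras2 differed the other way, at 9.74 in wild-type cells and 8.62 without Runx2, a difference of -1.12 (2.17-fold lower). Far1, Gm5600 and Copb1 on either side of Spon1 and Rras2 were at 0.43, -0.40 and 0.17.

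The remaining flanking gene past 2-fold was the microRNA gene Mir592, which lies inside the Grm8 gene and on the same strand. Its own probe set was at 307.7 intensity units in wild-type cells and 83.9 without Runx2, 8.27 and 6.39 on the log2 scale, a difference of -1.87 (3.67-fold lower). It was thus lower in the same sample as its host gene, by a separate probe set of the same 2 arrays. Among 272 named microRNA genes it was the 1 at least 2-fold lower, and 1 was at least 2-fold higher. The labelling takes total RNA and does not select mature microRNAs, so the value does not tell the hairpin or mature form from the Grm8 precursor transcript that contains it. The neighbours of Grm8 outside the gene, Gpr37, Pot1a and Zfp800, were at -0.12, 0.19 and 0.27. The mature sequences of the microRNA hosted by Grm8 are given from RefSeq (GRCm38.p6, hairpin at chr6:27936655-27936750, minus strand), with the seed, bases 2 to 8, in capitals.
mmu-miR-592-5p: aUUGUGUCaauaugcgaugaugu
mmu-miR-592-3p: uCAUCACGuggugacgcaacau
The arms have different seeds, UUGUGUC and CAUCACG, and no value here belongs to either arm alone.

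**Figure D5:**
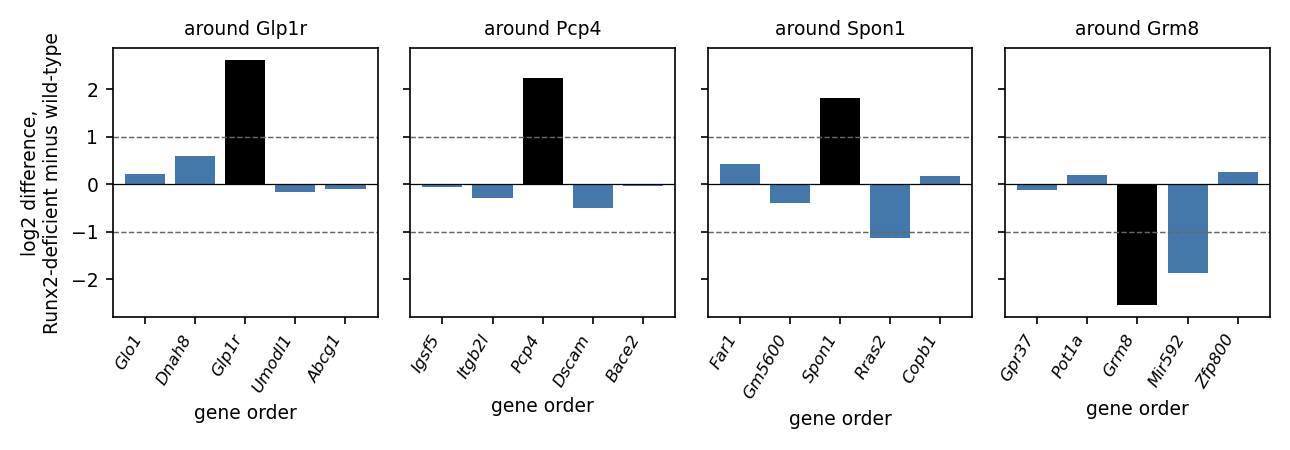
Log2 difference (Runx2-deficient minus wild-type) of the 4 genes (black bars) and the 2 nearest named genes on each side (blue bars), in order of their start along the chromosome and not to distance; dashed lines mark 2-fold. Mir592, inside Grm8, is lower together with it, Rras2 is lower next to the higher Spon1, and the other 14 flanking genes are within 2-fold.

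In RefSeq, Glp1r lies on chromosome 17, Pcp4 on 16, Spon1 on 7 and Grm8 on 6. Chromosome 17 also carries Runx2, and 282 named genes lie between it and Glp1r. Of these, 2 lay past 2-fold on the higher side and 4 on the lower, together 2.13% beside 1.08% over all named genes. Their median was -0.068.

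The genes whose pair of values lay nearest to each of the 4 were found by the distance in log2 values over the 2 arrays, which is no measure of shared control. Predicted gene models, clone-named genes, olfactory receptors and antigen receptor genes were left out of this search. Pcp4 lay 0.0092 from Ikzf3, the lymphoid transcription factor Aiolos, at 7.38 and 9.63, and 0.30 from Bank1, a B cell scaffold gene. Glp1r was nearest to Ikzf3 and to the Ras activator gene Rasgrp3, at distances of 0.50 and 0.51. Spon1 was nearest to Upk1b, a tetraspanin of the bladder lining (1.72 higher without Runx2), and to Prg3, a granule protein of eosinophils (7.27 and 8.62). Grm8 was nearest to the metalloproteinase inhibitor gene Timp2 (10.33 and 7.33) and the erythroid gene Slc4a1 (9.66 and 7.39).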

How the data were processed

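Gene expression was measured on 2 arrays, 1 of Runx2-deficient and 1 of wild-type pDCs. The deposited values are linear intensities, 15.3 to 20364, 1 per probe set and array; the authors used RMA (background correction, normalization between arrays, summary per probe set), per the submitters' processing notes, and its software and version are not stated in what was used here. RMA normally reports log2 values; that the scale is linear was read from the values. The number of arrays limits the precision. Column medians were 181.7 (Runx2-deficient) and 182.9 (wild-type).

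Of 35556 probe sets, 21789 carry 1 gene symbol, 1621 several and 12146 none in the platform annotation, which can be old; only the first kind was used. A gene with several probe sets was represented by the one with the highest mean log2. Differences are log2 Runx2-deficient minus wild-type; a fold is the ratio of intensities. Counts use 2-fold, with no test. The members and lists were chosen with earlier results of these data known. Genes named are the 4, their receptor families, up to 3 list genes in each direction past the brightness level and any past 2-fold, 2 flanking genes a side and 2 nearest genes. Some further genes were named after their values were seen: dim or near-equal list genes, markers of other cells, and Y-linked genes. The stretch between Glp1r and Runx2, the microRNA comparison, the TATAAA search and the base composition were also chosen then. Counting and the loess step were tested on simulated data. Alternatives were median centring, loess correction (span 0.3), the mean of probe sets, 50 added before log2, a 1.5-fold threshold and other brightness filters. Tables were handled with pandas 2.3.3 and numpy 2.4.6 under Python 3.11.15, the loess fit came from statsmodels 0.14.6, and plots from matplotlib 3.10.9.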

Additional observations from a re-analysis of the deposited data

How the results depend on the processing

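Median centring and a loess correction on intensity moved each of the 4 differences by less than 0.1 log2 units. Median centring shifts every gene by the same 0.0097. The mean of all probe sets could not change these differences, because each of the 4 genes has 1 probe set. The 40 alternatives covered these differences, the counts and the promoter motif. Of them, 30 stayed within a set tolerance and 10 moved past it. A count has no sign that could reverse, and 0 of the 4 differences changed sign. Some list genes near 0 did change sign. Calm2 went from -0.037 to 0.13 with the mean of its probe sets, and Spon2 from -0.062 to 0.016 after loess correction. Adding 50 to the intensities before log2 gave 2.20 for Glp1r, 1.95 for Pcp4, 1.52 for Spon1 and -2.26 for Grm8, by construction nearer to 0 for dim values. At 1.5-fold, 4 in place of 1 of the pathway, granule, neural and islet genes passed, and named genes past the brightness level came to 312 higher (82 at 2-fold) and 399 lower (121 at 2-fold). Asking for the brightness level on both arrays left 0 of the 4 genes and 72 of the 121 lower genes. Each of the 4 was below the level on 1 array, and 49 of the lower genes were below it only in the Runx2-deficient sample. The looser TGNGGT was in 3 of 5 promoter windows, where TGTGGT was in 0. No paired analysis was possible because each group has 1 array. With 1 array per genotype, no value has a replicate check, and the dim side of each fold could not be set against a detection call.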
